A study of Mus musculus with 65 samples.

Results

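The loci of Gata1 and Gata2, the genes of the GATA factors that order red cell development, were examined for peaks of LDB1, YY1, CTCF and the cohesin subunit RAD21 in a mouse erythroblast line. The members are all peaks of the 9 deposited peak sets that overlap the window chrX:7480000-7640000 around Gata1 (160 kb) or the window chr6:88020000-88220000 around Gata2 and its distal upstream enhancer (200 kb), in build mm9. They number 122 of 143220 peaks, 41 at Gata1 and 81 at Gata2.

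The study used chromatin immunoprecipitation and sequencing (ChIP-seq) in sublines of G1E-ER4. G1E cells come from mouse embryonic stem cells in which Gata1 was disrupted, and the ER4 line carries GATA1 fused to the ligand-binding domain of the estrogen receptor, so the endogenous Gata1 locus read here is an altered allele. Whether hormone was added, and whether a subline is a single clone, is not given in the sources used here. In the LDB1-AID subline LDB1, and in the SMC3-AID subline the cohesin subunit SMC3, is fused to an auxin-inducible degron, and adding auxin leads the cell to destroy the tagged protein. Both sublines were profiled untreated and after 4 h of auxin. In LDB1-AID cells 5 sets were used, each combining 2 replicates: LDB1, CTCF, RAD21 and YY1 in untreated cells and LDB1 after auxin. In SMC3-AID cells 4 sets were used, each combining 3 replicates: LDB1 and RAD21, both untreated and after auxin.

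GATA1 and GATA2 are zinc-finger transcription factors that bind the same DNA motif. GATA2 acts in stem cells and progenitors, and during red cell maturation GATA1 displaces it from chromatin and represses its gene, the exchange known as the GATA switch. LDB1 binds no DNA itself. It is brought to GATA and E-box sites in a complex with GATA1, TAL1, E2A and LMO2, and it dimerises, which lets it link enhancers to promoters. Cohesin extrudes loops that stall at CTCF, and YY1 is a zinc-finger protein found at promoters and enhancers. Both GATA genes are known targets of GATA factors, Gata1 through elements upstream of and within the gene, and Gata2 through a distal upstream enhancer, elements near its promoters and an enhancer in an intron. In RefSeq gene order Gata1 lies between Hdac6 and Glod5, and Gata2 between Rpn1 and Dnajb8.

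Each set is a list of 400 bp intervals without height, score or p-value, so a peak is either called or not. Replicates had been combined before deposit, so the spread between them cannot be given, and read depth is unknown. A count that differs between sets can therefore follow depth, antibody, peak calling or occupancy, which cannot be told apart here. The sets held 10741 untreated LDB1, 54286 CTCF, 33204 RAD21, 12833 YY1 and 1047 auxin LDB1 peaks in LDB1-AID cells. In SMC3-AID cells they held 8594 untreated LDB1, 7245 auxin LDB1, 15245 untreated RAD21 and 25 auxin RAD21 peaks. Shares are given with Wilson 95% intervals, which cover counting error only, since neighbouring peaks are not independent. For a count of 0 the limit of 3 counts of the total is given beside the upper Wilson bound.

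The starts of both genes are shown by their promoter sequence, since GATA factors and LDB1 are brought to DNA by sequence. The 250 bases before each annotated start were taken from RefSeq on GRCm38.p6, another build than that of the peaks, so whether a peak covers these bases is not given here. Gata1 has 1 such entry (chrX:7967911-7968160, minus strand) and Gata2 has 2, the distal start (chr6:88193641-88193890, plus strand) and the proximal start (chr6:88198414-88198663, plus strand). Capitals mark the letters GATA and CACCC on either strand, CACCC being the box bound by Krüppel-like factors such as KLF1.
Gata1: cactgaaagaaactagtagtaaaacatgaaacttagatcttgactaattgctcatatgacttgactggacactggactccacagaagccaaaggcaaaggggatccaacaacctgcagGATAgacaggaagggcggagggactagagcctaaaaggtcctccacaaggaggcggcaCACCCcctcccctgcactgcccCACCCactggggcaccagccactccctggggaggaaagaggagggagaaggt
Gata2 distal: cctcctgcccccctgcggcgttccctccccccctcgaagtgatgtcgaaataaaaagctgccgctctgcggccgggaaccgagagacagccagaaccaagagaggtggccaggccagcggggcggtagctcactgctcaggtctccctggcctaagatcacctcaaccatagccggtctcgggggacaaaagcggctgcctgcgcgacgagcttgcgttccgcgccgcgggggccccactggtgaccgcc
Gata2 proximal: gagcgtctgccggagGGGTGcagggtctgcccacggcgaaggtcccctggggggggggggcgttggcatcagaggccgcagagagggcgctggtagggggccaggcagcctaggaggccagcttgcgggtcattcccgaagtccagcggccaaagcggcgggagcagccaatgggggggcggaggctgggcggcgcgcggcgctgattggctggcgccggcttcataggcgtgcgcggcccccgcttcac
The full GATA motif (the letters GATA with an A or a T before them and an A or a G after them, on either strand) was found in 0 of the 3, against 26.5% of 32851 RefSeq promoter entries cut to the same length. An E-box CANNTG followed after 7 to 9 bases by that motif (0.563% of all entries), which contains the GATA motif, and the YY1 core CCATNTT (12.4%) were also in none. The bare letters GATA, which occur in 53.6% of all entries, stood once in the Gata1 sequence. CACCC, found in 52.0% of all entries, stood at 2 places in the Gata1 sequence and at 1 in the proximal Gata2 sequence. These counts describe only these 250 bases. The GC content was 54.0% for Gata1, 67.2% for the distal and 74.0% for the proximal Gata2 start, beside a median of 52.4% over all entries.

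LDB1 sites were defined by merging peaks of all sets that share at least 1 bp, and they are numbered along each chromosome. The Gata1 window held 22 sites in all, of which 5 carried LDB1, and the Gata2 window held 36, of which 10 carried LDB1. At Gata1 the LDB1 peaks of untreated LDB1-AID cells lay at chrX:7541173-7541572 (site 1), chrX:7543233-7543632 (site 2), chrX:7545371-7545770 (site 3), chrX:7548452-7548851 (site 4) and chrX:7570449-7570848 (site 5). The 4 lower sites formed a compact group, with midpoints 2060, 2138 and 3081 bp apart, and site 5 stood 22 kb further on. Of all 10729 LDB1 peaks on the main chromosomes, 87 (0.811%) lay in a run of 4 peaks no wider than the 7.28 kb of this group. That run length is the rarest of those at Gata1, since 12.2% lay as close together as its tightest 2 peaks, 2.47% as its tightest 3 and 5.95% as all 5. Run lengths and widths, here and at Gata2 below, were taken from the peaks they describe, so these shares test nothing.

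At Gata2 the LDB1 peaks were spread more widely. In untreated LDB1-AID cells they lay at chr6:88066650-88067049 (site 3), chr6:88140576-88140975 (site 4), chr6:88141669-88142068 (site 5), chr6:88153015-88153414 (site 6), chr6:88176471-88176870 (site 7), chr6:88202139-88202538 (site 8), chr6:88204036-88204435 (site 9) and chr6:88205373-88205772 (site 10). Site 3 was the lowest of these, 73.9 kb below the next. Sites 4 and 5 were 1093 bp apart, site 6 followed after 11.3 kb and site 7 after another 23.5 kb. Sites 8 to 10 lay within 3.23 kb at the upper end, and 121 of all LDB1 peaks (1.13%) lay in a run of 3 that tight. Of the run lengths at Gata2 this is again the rarest, and of all LDB1 peaks 3.52% lay as close as its tightest 2 peaks, 13.8% as its tightest 4 and 14.2% as all 8. Sites 1 and 2, at chr6:88026105-88026504 and chr6:88056717-88057116, were called in SMC3-AID cells and in no set of LDB1-AID cells. In SMC3-AID cells site 2 lay 9.9 kb below site 3, and site 1 lay 30.6 kb below site 2.

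**Figure D1:**
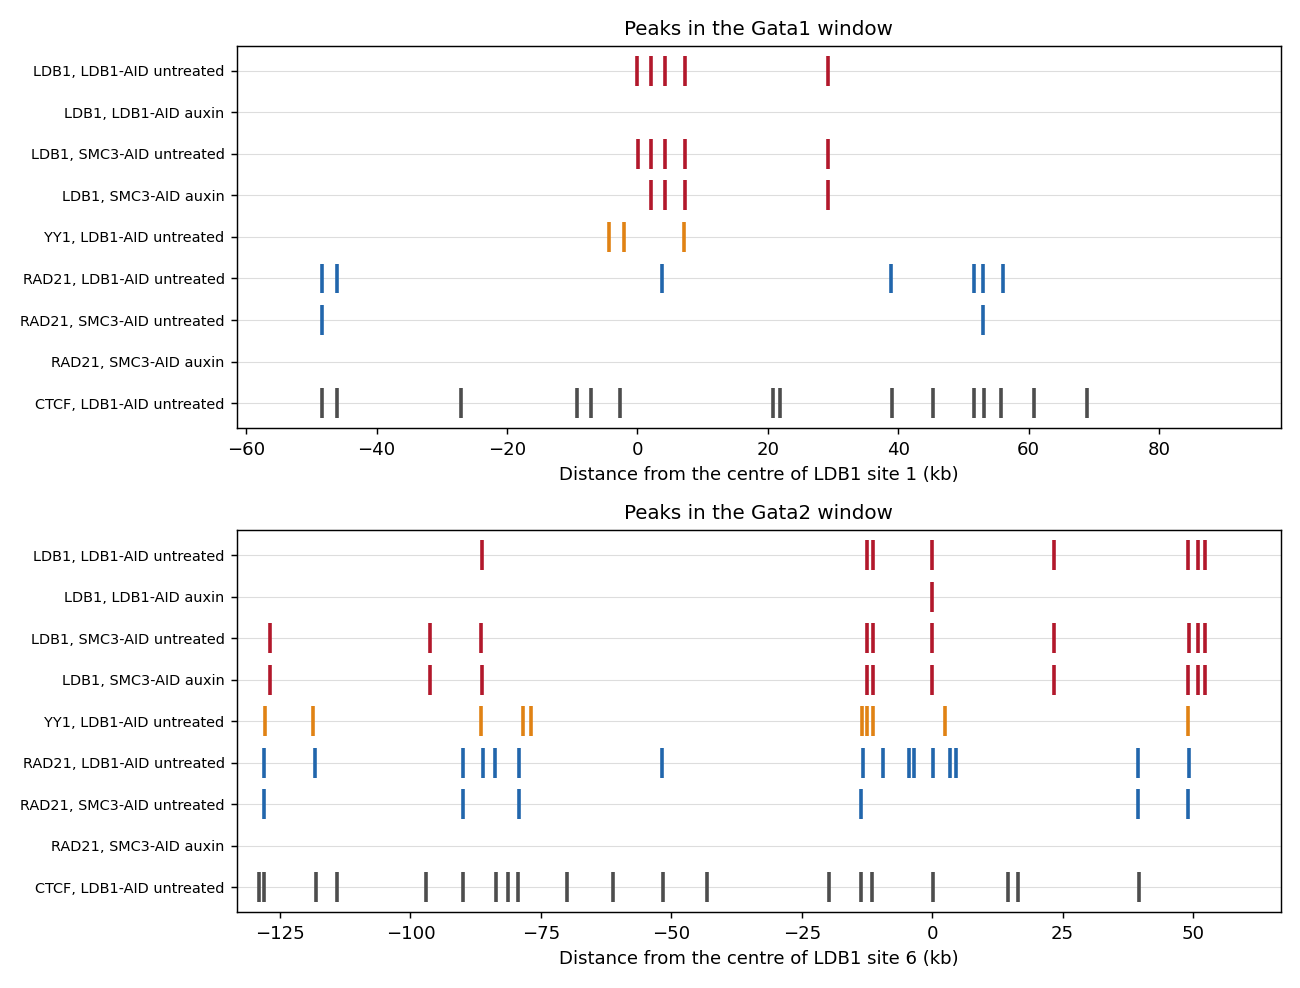
Peak positions in the Gata1 window (top) and the Gata2 window (bottom), with 1 row per peak set and the distance in kb from the centre of an LDB1 site on the horizontal axis; each tick is the midpoint of a peak. The LDB1 rows differ at Gata1 site 1 and Gata2 sites 1 and 2, and after auxin in LDB1-AID cells the only tick is at Gata2 site 6, while the row of RAD21 after auxin in SMC3-AID cells is empty at both loci.

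Both windows were compared with the genome cut into consecutive stretches of the same width, as a description. The Gata1 window held 5 LDB1 peaks in untreated LDB1-AID cells, and 3.18% of 16495 stretches of 160 kb held as many or more. It held 5 in untreated SMC3-AID cells too (1.81% of stretches). Of the other proteins it had 15 CTCF peaks (2.81%), 7 RAD21 peaks (8.71%) and 3 YY1 peaks (11.3%) in LDB1-AID cells. The Gata2 window held 8 LDB1 peaks in LDB1-AID cells (1.02% of 13197 stretches of 200 kb) and 10 in SMC3-AID cells (0.121%, or 16 stretches). In LDB1-AID cells it also held 20 CTCF peaks (1.77%), 16 RAD21 peaks (0.606%) and 10 YY1 peaks (0.629%). The RAD21 set of untreated SMC3-AID cells had 2 peaks in the Gata1 window (24.3%) and 6 in the Gata2 window (3.28%). Most of the genome held less, with no LDB1 peak in 73.1% of the narrower and 69.6% of the wider stretches. The nearest LDB1 peaks of LDB1-AID cells outside the windows were 65.6 kb below and 39.6 kb above the Gata1 window and 154 kb below and 101 kb above the Gata2 window. Inside, the outermost LDB1 peaks of LDB1-AID cells were 61.4 and 69.4 kb from the edges at Gata1 and 46.8 and 14.4 kb at Gata2. In untreated SMC3-AID cells the lowest LDB1 peak at Gata2 lay only 6.3 kb inside the edge.

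**Figure D2:**
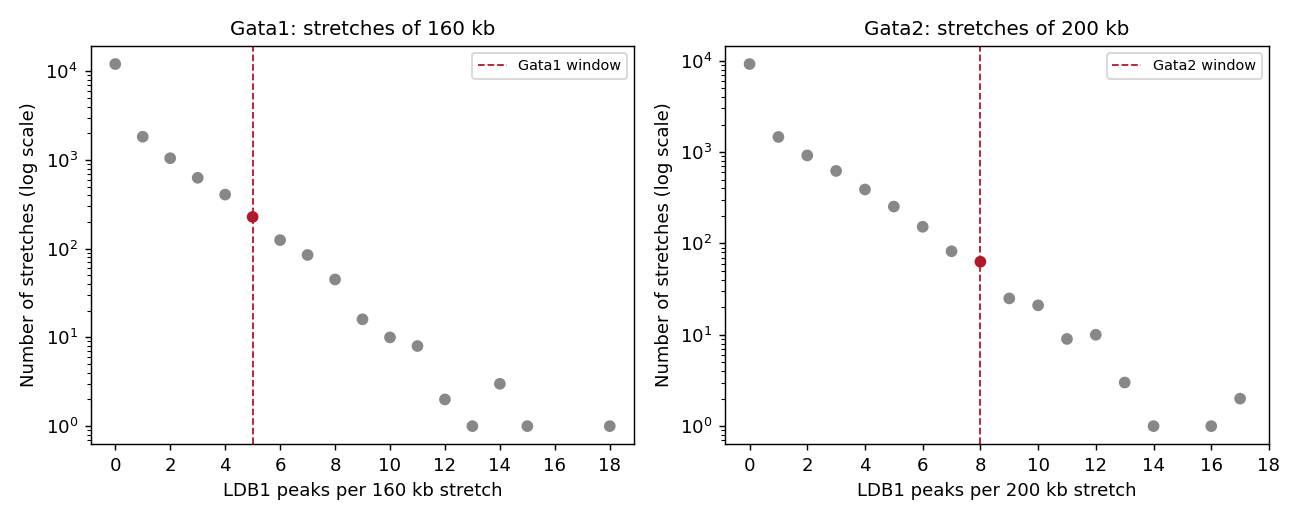
Number of genomic stretches (vertical, log scale) by their count of LDB1 peaks of untreated LDB1-AID cells (horizontal), for stretches of 160 kb (left) and 200 kb (right). The dashed lines mark the Gata1 window with 5 peaks and the Gata2 window with 8, which 3.18% and 1.02% of stretches reach.

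Depletion of LDB1 in LDB1-AID cells asked which of these sites still gave an LDB1 peak. At Gata1 0 of 5 LDB1 peaks were kept after 4 h of auxin, a count of 0 that allows a share of up to 60% (upper Wilson bound 43.4%). At Gata2 1 of 8 was kept, which was 12.5% (2.24 to 47.1). Over all LDB1 peaks of the set the share kept was 7.77%, which lies inside the Gata2 interval and within the limit at Gata1. The kept peak was site 6 of Gata2, and in the auxin set its nearest neighbours lay beyond the window, 294 kb below and 646 kb above the window's edges. Its midpoint was 52 bp from that of the untreated peak, beside a median of 38 bp (quartiles 16 and 84) over the 834 peaks kept in the genome.

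Site 6 carried a CTCF peak with its midpoint 74 bp away, a RAD21 peak 98 bp away, and no YY1 peak within 2457 bp. Across the genome 362 LDB1 peaks had CTCF and RAD21 without YY1, and 29 of them (8.01%) were kept after LDB1 depletion. In the class with RAD21 and YY1 and without CTCF, 229 of 791 LDB1 peaks (29.0%) were kept. Of the Gata2 sites, 3 and 8 belonged to that class, site 3 by a RAD21 overlap of 143 bp, and neither was called after auxin. With only 2 sites this is not a result about the locus. Site 6 was called in all 4 LDB1 sets, as were 697 LDB1 peaks of LDB1-AID cells (6.5%).

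After depletion of SMC3, 14 of the 15 LDB1 peaks at the loci were still called (93.3%, 70.2 to 98.8). At Gata2 all 10 LDB1 peaks of untreated SMC3-AID cells were found again after 4 h of auxin (100%, 72.2 to 100), and at Gata1 4 of 5 were (80.0%, 37.6 to 96.4). The share over all 8585 LDB1 peaks was 78.2%, inside both intervals. The peak not found after auxin was Gata1 site 1, the lowest in coordinates, which carried no CTCF, RAD21 or YY1 peak. Its nearest YY1 peak was 2091 bp and its nearest CTCF peak 2726 bp away. Gata1 site 1 was also called in untreated LDB1-AID cells, so it was present in both untreated sets and missing from both auxin sets. The peaks of Gata2 sites 1 and 2, found only in SMC3-AID cells among the LDB1 sets, were both kept after auxin.

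RAD21, the protein read as the measure of cohesin on chromatin, gave no called peak at either locus after SMC3 depletion. The untreated SMC3-AID set had 2 RAD21 peaks at Gata1 and 6 at Gata2, and 0 of the 8 were called after auxin, a count that allows a share of up to 37.5% (upper Wilson bound 32.4%). Over all 15223 RAD21 peaks 0.092% were kept. The LDB1 peak at Gata2 site 8, the only LDB1 site of either locus with RAD21 in SMC3-AID cells, was therefore kept while its RAD21 peak was not.

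**Figure D3:**
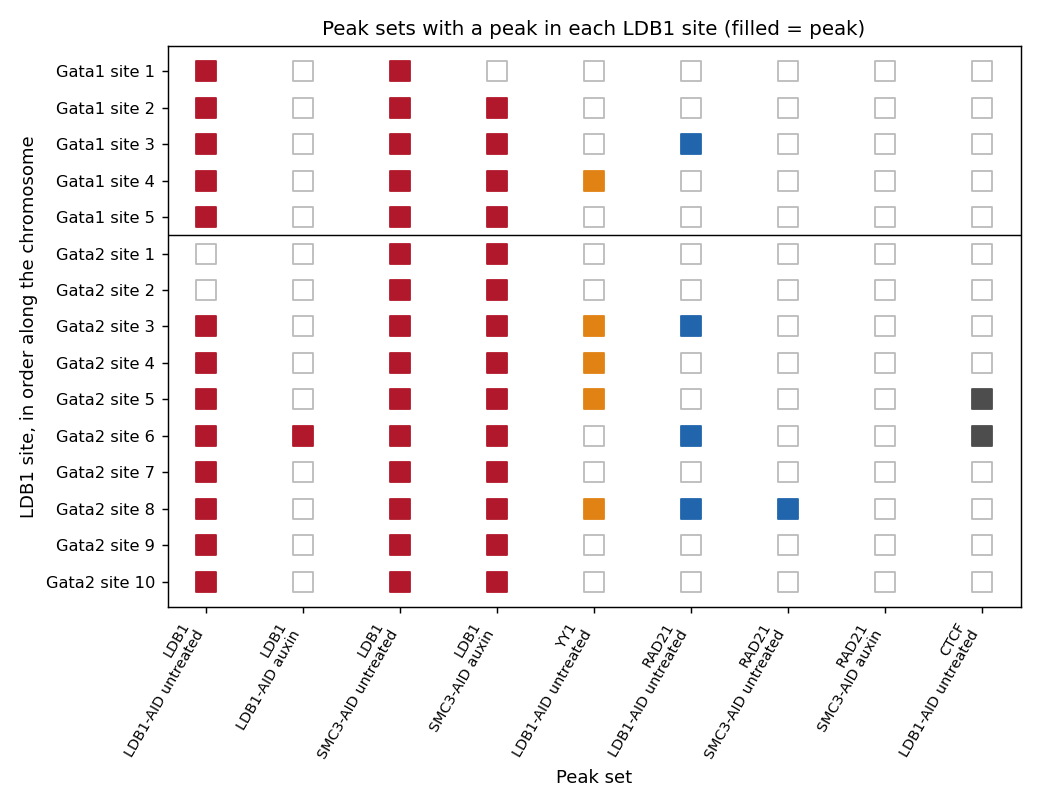
Presence (filled) or absence (open) of a peak of each of the 9 sets in the 15 LDB1 sites, with sites as rows in order along the chromosome and peak sets as columns. After LDB1 depletion only Gata2 site 6 is filled, whereas after SMC3 depletion Gata1 site 1 is the only open LDB1 square.

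The untreated sets of both sublines were set side by side to see how far the LDB1 and RAD21 sets differ without auxin. All 5 LDB1 peaks of LDB1-AID cells at Gata1 (56.6 to 100) and all 8 at Gata2 (67.6 to 100) were found in SMC3-AID cells. Over all LDB1 peaks 67.0% were, which lies inside the Gata1 interval and just below the Gata2 interval. On chromosome 6 alone the share was 68.4%, inside the Gata2 interval. In the other direction 5 of 5 at Gata1 and 8 of 10 at Gata2 were found in LDB1-AID cells, beside 84.1% over all peaks. The shared peaks lay at nearly the same bases. Between the untreated sublines the midpoints differed by a median of 17 bp at Gata1 (5 peaks, at most 24) and 22 bp at Gata2 (8 peaks, at most 39), beside 25 bp over 7192 shared peaks. From untreated to auxin-treated SMC3-AID cells the median was 9 bp at Gata1 (4 peaks) and 30 bp at Gata2 (10 peaks, at most 74), beside 19 bp over 6715 peaks.

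**Figure D4:**
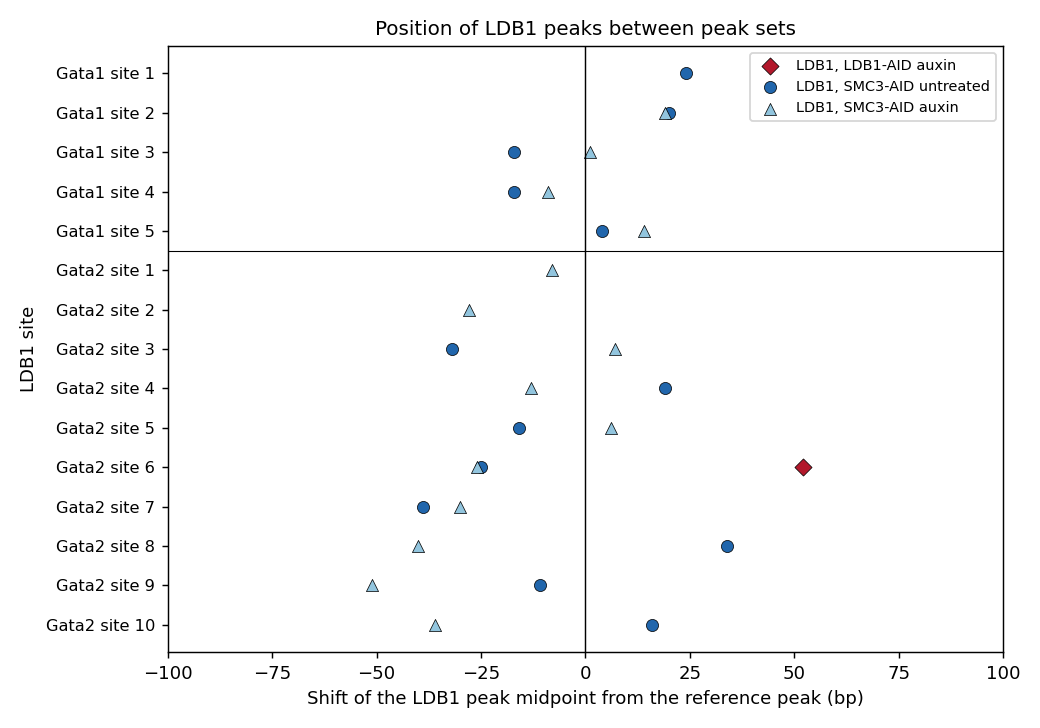
Shift in bp of the LDB1 peak midpoint in 3 LDB1 sets (symbols) from the LDB1 peak of untreated LDB1-AID cells at each of the 15 sites; for Gata2 sites 1 and 2 the reference is the untreated SMC3-AID peak. All symbols lie within 52 bp of the reference, and the only LDB1-AID auxin symbol is at Gata2 site 6.

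Fewer RAD21 peaks than LDB1 peaks of LDB1-AID cells were shared by the sublines. In LDB1-AID cells 2 of 7 RAD21 peaks at Gata1 (28.6%, 8.22 to 64.1) and 6 of 16 at Gata2 (37.5%, 18.5 to 61.4) were also found in untreated SMC3-AID cells, near the 43.4% over all peaks. All 2 and all 6 RAD21 peaks of SMC3-AID cells were found in LDB1-AID cells, beside 94.6% over all peaks. The RAD21 peaks shared by both sublines were mostly at CTCF, 2 of 2 at Gata1 and 5 of 6 at Gata2, and the remaining shared peak was that of site 8. Over the genome 50.7% of RAD21 peaks with CTCF and 12.4% of those without were found in SMC3-AID cells. The SMC3-AID set held fewer RAD21 peaks in all, and the part of set size in these counts was not tested.

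The partners of LDB1 in untreated LDB1-AID cells differed from site to site. A YY1 peak overlapped 1 of 5 LDB1 peaks at Gata1 (20%, 3.62 to 62.4) and 4 of 8 at Gata2 (50%, 21.5 to 78.5), beside 20.4% of all LDB1 peaks. The background lies just below the Gata2 interval. At Gata1 the YY1 peak was at site 4, with its midpoint 93 bp from that of LDB1. At Gata2 YY1 lay at site 3 (109 bp), site 4 (42 bp), site 5 (68 bp) and site 8 (99 bp). Seen from YY1, 1 of 3 peaks at Gata1 and 4 of 10 at Gata2 carried LDB1, beside 17.1% of all YY1 peaks.

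A RAD21 peak overlapped 1 of 5 LDB1 peaks at Gata1 (20%, 3.62 to 62.4) and 3 of 8 at Gata2 (37.5%, 13.7 to 69.4), beside 25.1% over all LDB1 peaks. The Gata1 case, at site 3, rested on 14 bp of overlap with midpoints 386 bp apart. It was lost under a rule that asks for 50% of each peak. The Gata2 cases were site 3 (257 bp between midpoints), site 6 (98 bp) and site 8 (36 bp). Site 3, with 143 bp of overlap, was also lost under the 50% rule, which left 2 of 8 (25%). Using the SMC3-AID set of RAD21 peaks, the counts were 0 of 5 and 1 of 8, site 8 being the remaining case.

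A CTCF peak overlapped 0 of 5 LDB1 peaks at Gata1, which allows a share of up to 60% (upper Wilson bound 43.4%), and 2 of 8 at Gata2 (25%, 7.15 to 59.1), beside 7.4% of all LDB1 peaks. These were site 5, with midpoints 221 bp apart, and site 6, 74 bp apart. The genome share lies inside the Gata2 interval, and the 6.28% of LDB1 peaks on chromosome 6 alone lies below it. Under the rule that asks for 50% of each peak 1 of 8 remained (12.5%), site 6, and with a gap of up to 1 kb allowed there were 3 of 8 (37.5%). The 4 grouped LDB1 peaks of Gata1 lay together in a span of 23.5 kb without CTCF, between CTCF peaks at chrX:7538447-7538846 and chrX:7561973-7562372. The distance from LDB1 to the nearest CTCF midpoint at Gata1 ranged from 2.73 kb at site 1 to 10 kb at site 4. Over all LDB1 peaks the median distance was 6.32 kb (quartiles 1.99 and 16.2). Sites 8 to 10 of Gata2 lay above the last CTCF peak of the window, at chr6:88192597-88192996, and the next CTCF peak followed after 136 kb, beyond the window.

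By combination, 3 LDB1 sites of Gata1 (sites 1, 2 and 5) and 3 of the 8 Gata2 sites called in LDB1-AID cells (sites 7, 9 and 10) carried none of the other proteins, as did 61.5% of all LDB1 peaks. Sites 3 and 8 of Gata2 carried both RAD21 and YY1, a class that held 7.37% of all LDB1 peaks. Under the rule that asks for 50% of each peak, site 3 would not carry RAD21. None of the 13 LDB1 peaks at the 2 loci had all 3 proteins, beside 1.63% of all LDB1 peaks, a share at which a count of 0 is not a result about the loci.

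**Figure D5:**
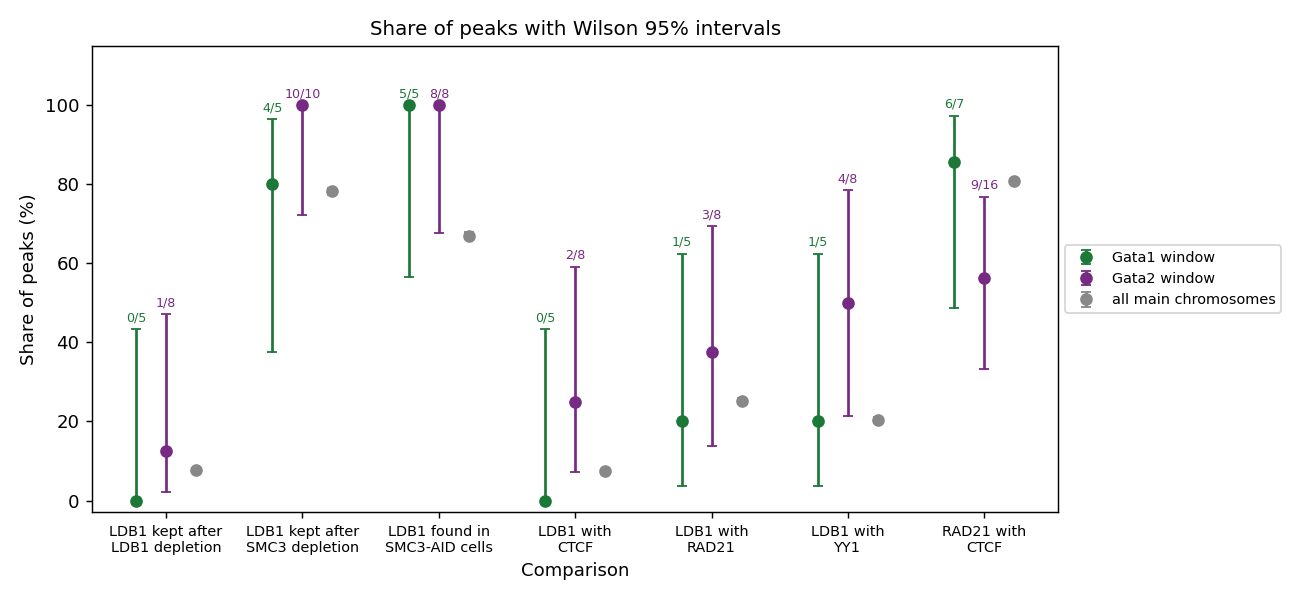
Share of peaks in percent (points) with Wilson 95% intervals (bars) for 7 comparisons at Gata1, at Gata2 and over all main chromosomes, with counts printed above the points of the loci; the intervals over all chromosomes are narrower than the points. The background lies outside an interval in 3 comparisons, all at Gata2: LDB1 found in SMC3-AID cells (67.0%), LDB1 with YY1 (20.4%) and RAD21 with CTCF (80.9%). The first no longer lies outside when chromosome 6 alone (68.4%) is the background. With that background LDB1 with CTCF (6.28%) lies below the Gata2 interval.

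Cohesin peaks away from CTCF were found mainly at Gata2. At Gata1 6 of 7 RAD21 peaks of LDB1-AID cells had CTCF (85.7%, 48.7 to 97.4), and the seventh was the peak beside LDB1 site 3. At Gata2 9 of 16 had CTCF (56.2%, 33.2 to 76.9), beside 80.9% of all RAD21 peaks, which lies above that interval. The intervals of the loci overlapped. Of the 7 Gata2 RAD21 peaks without CTCF, 2 were on LDB1 sites 3 and 8. The other 5 (31.2% of 16, 14.2 to 55.6) had no CTCF, LDB1 or YY1 peak, beside 9.45% of all RAD21 peaks, below that interval. They lay at chr6:88143617-88144016, chr6:88148559-88148958, chr6:88149611-88150010, chr6:88156519-88156918 and chr6:88157610-88158009, on both sides of LDB1 site 6. None of the 5 was called in SMC3-AID cells. Of all RAD21 peaks without CTCF, a wider class that includes those on LDB1 or YY1, 12.4% were found there. At that share none of 5 is not a result about the locus.

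These 5 peaks had midpoints within 14.0 kb, a grouping singled out after its values were seen. Among the 3132 RAD21 peaks without CTCF, LDB1 and YY1 in the genome, the Gata2 peaks were the only run of 5 that tight. With a span of 25 kb there were 4 such runs and with 50 kb there were 13. Under the rule that asks for 50% of each peak there were 4 runs of 5 within 14.0 kb in the genome. When a partner within 1 kb counted as present, 4 such RAD21 peaks remained in the Gata2 window and no run of 5 in 14.0 kb was left in the genome. Among all RAD21 peaks without CTCF, whatever else they carried, there were 11 runs of 5 within 14.0 kb, and among all RAD21 peaks there were 144.

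The remaining sites were CTCF and YY1 peaks. At Gata1 9 sites had CTCF alone, 6 had CTCF with RAD21, and 2 had YY1 alone, at chrX:7536852-7537251 and chrX:7539082-7539481, just below the LDB1 group. At Gata2 10 sites had CTCF alone, 5 had CTCF with RAD21 and without YY1 or LDB1, and 3 had YY1 alone. A further 3 Gata2 sites joined YY1 with RAD21 and CTCF without LDB1. At the site chr6:88034270-88035312 the YY1 peak itself overlapped the RAD21 peak but not the CTCF peak. That overlap was only a few bases, since the YY1 peak ended at 88034669 and the RAD21 peak started at 88034667. A RAD21 peak was present at 6 of 15 CTCF peaks at Gata1 (40.0%, 19.8 to 64.3) and 9 of 20 at Gata2 (45%, 25.8 to 65.8), near the 49.5% over all CTCF peaks. The 2 CTCF peaks of Gata1 with RAD21 in both sublines, at chrX:7492759-7493158 and chrX:7594313-7594712, stood on either side of the LDB1 sites.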

How the data were processed

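Peak lists of 9 ChIP-seq groups, deposited by the authors as chromosome, start and end in bp, were used as they are. The submitters' processing notes name Bowtie2, MACS2 2.2.9.1, deepTools 3.5.1 and build mm9, without their roles. The consensus rule, thresholds and filters are not given in the sources used here. Groups came from the sample titles (65 samples, of which 22 stand behind the 9 lists), and the other samples were not analysed here. Starts were converted to count from 1.

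Peaks shared by at least 1 bp were counted on chromosomes 1 to 19, X and Y with Python 3.11.15 and pandas 2.3.3. Counts for 4 pairs of sets matched bedtools 2.31.1, and the counting of overlaps recovered all planted overlaps in simulated data. Wilson intervals came from statsmodels 0.14.6. No test between groups was made, since replicates were combined. Planned counts at other genes and motif searches in peaks were not run, for want of a genome and annotation of build mm9, and the planned motifs were searched in promoters of GRCm38.p6 in their place. The letters GATA and CACCC and the runs of RAD21 peaks, with 6 alternatives, were added after the data were seen. The runs of LDB1 peaks were not among the planned results either. Every LDB1 site was named by rule, and other sites by counts or as neighbours of LDB1 sites. The loci, lists and rules were chosen with earlier results of these data known.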

Additional observations from a re-analysis of the deposited data

How the results depend on the processing

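For 22 shares of peaks, 112 alternative values were computed, with other overlap rules and with wider or narrower windows, and 109 stayed inside the Wilson interval of the reported share. The 3 that moved concern LDB1 peaks with RAD21. At Gata1 the share was 0% (reported: 20%) both under a rule asking for 50% of each peak and with the RAD21 set of SMC3-AID cells, and at Gata2 it was 12.5% (reported: 37.5%) with that set. Of 50 alternative counts of peaks and sites, 44 stayed within 1.5 times. A window widened by 50 kb on both sides gave 8 YY1 peaks at Gata1 in place of 3, and 5 untreated SMC3-AID RAD21 peaks in place of 2. A window narrowed by 25 kb on both sides gave 1 of the latter, and at Gata2 it gave 5 LDB1 peaks in LDB1-AID cells in place of 8, and 6 in place of 10 in SMC3-AID cells both untreated and after auxin. No paired analysis was possible because replicates were combined in each list, and no replicate could be left out for the same reason. The run of 5 RAD21 peaks was recounted under 6 alternatives chosen after seeing the data, and the number of such runs moved from 1 under each, to 4 and 13 with wider spans, 4 and 0 under other overlap rules, and 11 and 144 with fewer or no partners barred. With 2 to 20 peaks behind a share at a locus, intervals are wide, so an alternative can stay inside while the share changes much. LDB1 with CTCF at Gata2 stayed inside at 12.5% and at 40.0% (reported: 25%). The read depth is unknown.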

Other observations

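The chromosomes of the loci give a nearer background than the whole genome. On chromosome X a YY1 peak was present at 19 of 195 LDB1 peaks (9.74%, Wilson 95% interval 6.33 to 14.7), against 113 of 541 on chromosome 6 (20.9%, 17.7 to 24.5). Of the LDB1 peaks of LDB1-AID cells, 59.5% (52.5 to 66.1) on chromosome X and 68.4% (64.4 to 72.2) on chromosome 6 were found in SMC3-AID cells. The shares kept after LDB1 depletion were 5.64% on X and 7.76% on chromosome 6, and after SMC3 depletion 76.1% and 80.2%. No RAD21 peak was kept after SMC3 depletion on either chromosome, out of 299 on X and 778 on chromosome 6, which allows shares of up to 1.0% and 0.386% (upper Wilson bounds 1.27% and 0.491%).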
